A study of Mus musculus with 6 samples.

Results

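The data covered 32 genes of cholesterol synthesis, uptake and transport, chosen by name from the pathway, in ovarian secondary follicles of young and old mice. Of the 32 genes, 29 had a probe set annotated to them alone and were measured, among 18193 genes tested in all, and Acat2, Soat1 and Nr1h2 were not analysed here. Needles were used to free the follicles by hand from ovaries of female, specific pathogen-free C57BL/6J mice, 3 samples from young mice (9 weeks) and 3 from old mice (32 weeks), with no treatment named for either age. Each sample was hybridized to 1 Affymetrix 3' expression array, and a gene was represented by its probe set (several short probes read as 1 value, most of them near a transcript's 3' end) with the highest mean over the 6 arrays. Values are log2 of the RMA intensity, and every difference is old minus young on that scale. The labels call the samples of an age biological replicates. How many mice gave each sample is not stated in the paper or labels, and p-values cover only the spread between these samples. A secondary follicle holds an oocyte, its granulosa cells and the first theca cells together, so that fewer cells of a type and less RNA per cell cannot be told apart.

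Cells make cholesterol from acetyl-CoA through mevalonate, isoprenoid diphosphates, squalene and lanosterol, and the later enzymes turn lanosterol into cholesterol. When sterols are scarce in the endoplasmic reticulum, Scap carries the SREBP transcription factors to the Golgi for activation, while the Insig proteins hold this complex back when sterols are plentiful. Cells also take up cholesterol from lipoproteins, release it from lysosomes through Npc1 and Npc2, store it as esters, and export it through ABC transporters. In the mouse follicle, the oocyte is known to make little cholesterol and to rely on the surrounding granulosa cells, and cholesterol is the substrate of ovarian steroids.

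Markers of the labelled tissue were present, and some marker lists differed between the ages. The mean log2 intensity of 12 oocyte markers lay between 10.06 and 10.07 in young samples and between 9.77 and 9.82 in old ones, and 9 of the 12 were lower in the old samples at an adjusted p of at most 0.05 (limma, Benjamini-Hochberg over all genes). The 13 granulosa markers averaged 11.10 to 11.11 in young and 11.09 to 11.13 in old samples, with 2 higher and 2 lower. Of 16 macrophage markers, 10 were higher and 1 was lower in the old samples, and all 8 markers of the ovarian surface epithelium were higher. By that rule 10.1% of all genes were higher and 13.3% were lower. The array's control for beta-actin had a 3' minus 5' value of 1.48 ± 0.033 in young and 2.53 ± 0.050 in old samples (SD, n = 3 each), and that of Gapdh was 0.47 ± 0.014 and 1.51 ± 0.0048, both without overlap (exact two-sided permutation test, p = 0.1, the smallest that 3 against 3 allow). For both transcripts the 5' signal was lower relative to the 3' signal on the old arrays, and the part of this in the differences of single probe sets was not tested.

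Most enzymes of cholesterol synthesis that differed between the ages were higher in the old follicles, by small amounts. Of the 29 measured genes, 12 passed an adjusted p of 0.05 as higher and 3 as lower, with no minimum fold, and 14 did not pass. Over all genes tested, 10.1% were higher and 13.3% were lower by the same rule. All 29 genes had a mean log2 intensity of at least 5, and among the 11380 genes above that level, fitted alone, 13.8% were higher and 27% were lower. In that separate fit 13 of the 29 were higher and 4 were lower. The higher genes lay mainly in synthesis, with 10 of 17 measured synthesis genes higher and 1 lower, against 1 of 5 sterol-sensing genes higher and 1 of 7 genes of uptake, storage and efflux higher with 2 lower. None of the 29 reached a fold of 2 in either direction, a size that 0.764% of all genes reached with an adjusted p of at most 0.05. The 3 old values lay entirely above or below the 3 young values in 17 of the 29 genes, where 42.5% of all genes did so. The median log2 fold change was 0.24 over the synthesis genes, 0.00057 over the sterol-sensing genes and -0.053 over the genes of uptake, storage and efflux, beside -0.0042 over all genes. Whether these groups of genes differed from each other was not tested. After quantile or cyclic loess normalization of the deposited values the synthesis median was 0.32 and 0.31, the median of uptake, storage and efflux turned to 0.013 and 0.012, and all genes split into 11.8% higher and 10.7% lower or 12% higher and 10.6% lower. The count of 12 higher genes became 9, 5 and 5 without young replicate 1, 2 or 3, and 7, 6 and 6 without old replicate 1, 2 or 3. In these fits the share of all genes that were higher was 6.24% to 8.12%, against 10.1% with all samples.

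**Figure D1:**
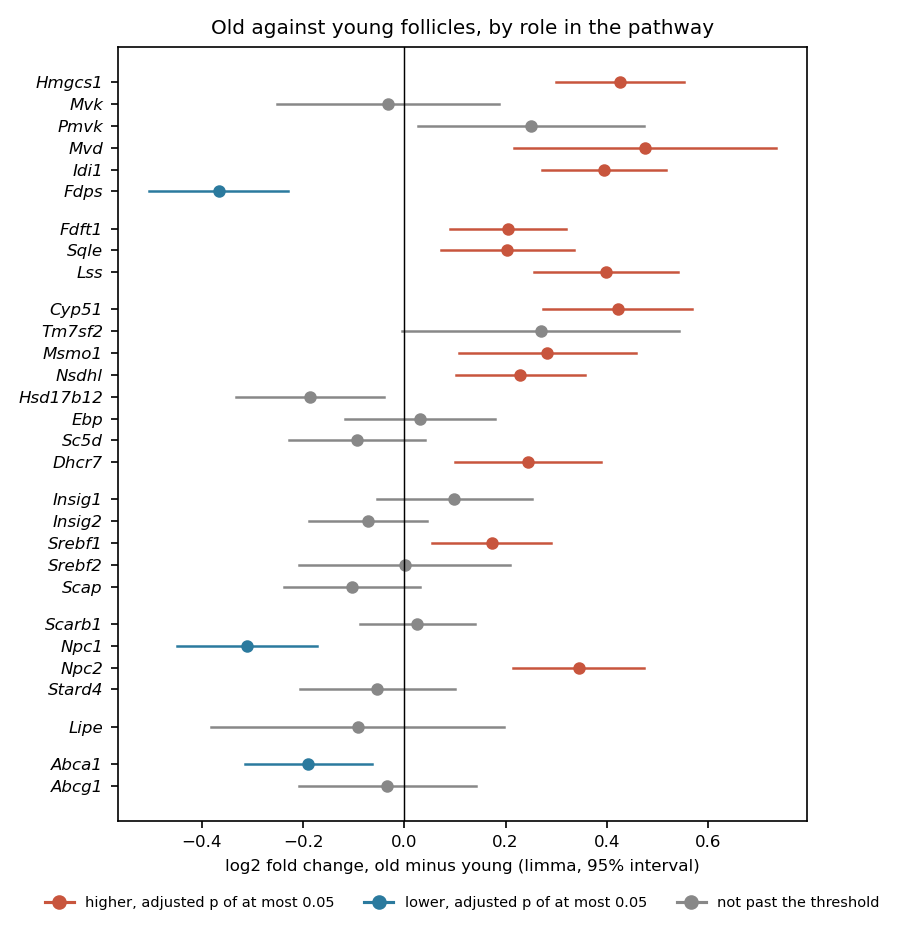
The log2 fold change of old against young follicles (horizontal axis, with limma's 95% interval) for each of the 29 genes, grouped by role from the mevalonate pathway at the top to efflux at the bottom. Red marks the 12 higher genes and blue the 3 lower genes, Fdps, Npc1 and Abca1, while grey genes did not pass the threshold.

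The bases before the transcription start are shown for the 5 synthesis genes with the largest old-minus-young differences, and for Abca1, which was lower. SREBP factors bind sterol regulatory elements and act together with NF-Y, a factor that binds the letters CCAAT. Sequences are from RefSeq (GRCm38.p6), end at the base before the start, and run on the gene's strand, with capitals marking each match to CCAAT or to the sterol regulatory element TCACNCCAC on either strand (ATTGG is CCAAT read on the other strand).
Hmgcs1, chr13:119690181-119690350, plus strand: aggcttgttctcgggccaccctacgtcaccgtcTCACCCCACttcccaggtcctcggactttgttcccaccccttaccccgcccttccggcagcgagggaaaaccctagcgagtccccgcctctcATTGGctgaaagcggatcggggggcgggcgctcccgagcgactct
Idi1, chr13:8885486-8885605, plus strand: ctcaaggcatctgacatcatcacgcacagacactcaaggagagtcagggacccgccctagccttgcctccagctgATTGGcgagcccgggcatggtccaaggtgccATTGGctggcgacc
Mvd, chr8:122443423-122443542, minus strand: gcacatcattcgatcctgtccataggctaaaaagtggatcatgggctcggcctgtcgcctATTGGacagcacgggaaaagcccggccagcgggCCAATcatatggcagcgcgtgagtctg
Lss, chr10:76531485-76531604, plus strand: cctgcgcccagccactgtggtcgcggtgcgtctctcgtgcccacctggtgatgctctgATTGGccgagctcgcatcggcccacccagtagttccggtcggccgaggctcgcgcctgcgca
Cyp51, chr5:4104698-4104817, minus strand: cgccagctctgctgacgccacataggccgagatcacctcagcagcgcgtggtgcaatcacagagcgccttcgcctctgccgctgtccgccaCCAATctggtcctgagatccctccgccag
Abca1, chr4:53159896-53160015, minus strand: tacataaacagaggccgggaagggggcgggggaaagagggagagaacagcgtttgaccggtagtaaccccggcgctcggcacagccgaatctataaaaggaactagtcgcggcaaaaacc

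The promoter table held 22 of the 29 genes, and Fdps, Fdft1, Sqle, Scarb1, Npc1, Stard4 and Abcg1 were not matched. Within the 250 bases before any listed start, CCAAT stood in 19 of these 22 genes (86.4%) and in 37.5% of the 27025 genes of the table. All 14 matched synthesis genes held it, those that were higher in the old samples and those that were not alike, and 5 of the 8 other matched genes did. The sterol regulatory element stood in 1 of the 22 genes, Hmgcs1, from 137 to 129 bases before its start, and in 1.23% of all genes. A match describes these letters only, and no match says no more than that the letters are not in this window.

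In the mevalonate pathway, 3 of the 6 measured enzymes were higher in the old samples and 1 was lower. Hmgcs1, which makes HMG-CoA and whose start region carried both motifs, was at 10.78, 10.76 and 10.66 in the young samples and at 11.16, 11.14 and 11.17 in the old samples. The groups did not overlap, and the log2 fold change was 0.43 (standard error 0.054, limma adjusted p = 0.00218). That is the brightest of its 5 probe sets, and the other 4 ran from -0.78 to 0.46. Those ranked 2 and 3 in brightness, with young means of 10.28 and 10.33, were at 0.04 and -0.07. Both had overlapping groups and did not pass the threshold (limma adjusted p = 0.779 and 0.664 over all probe sets). Mvd, which decarboxylates mevalonate diphosphate to isopentenyl diphosphate, was at 6.88, 6.73 and 6.54 in the young samples and at 7.23, 7.33 and 7.02 in the old samples. Its samples were spread more widely within each age, with no overlap, and it differed by 0.48 (standard error 0.11, adjusted p = 0.0208). Mvd lost its call without young replicate 2 (adjusted p = 0.0559), young replicate 3 (0.0556) or old replicate 2 (0.0585). Idi1, the isomerase that follows, was at 8.03, 8.09 and 8.07 against 8.51, 8.45 and 8.41, a difference of 0.39 (standard error 0.053, adjusted p = 0.00262). Fdps, which joins these units to farnesyl diphosphate, the branch point to sterols and to other isoprenoids, went the other way. It was at 9.09, 9.12 and 9.21 in the young samples and at 8.71, 8.83 and 8.76 in the old samples, a difference of -0.37 (standard error 0.059, adjusted p = 0.00525). The mevalonate kinases did not pass the threshold in the main fit. Mvk, mevalonate kinase, was at -0.03 with young replicate 1 above all other samples, and Pmvk, phosphomevalonate kinase, was at 0.25 with overlapping groups (adjusted p = 0.101). Pmvk passed as higher after quantile (limma adjusted p = 0.0408) and cyclic loess normalization (0.0367).

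At their brightest probe sets, all 3 enzymes from farnesyl diphosphate to lanosterol were higher in the old samples, and 1 of them, Lss, kept its call without any 1 sample. Lss, lanosterol synthase, was at 7.25, 7.36 and 7.35 in the young samples and at 7.72, 7.79 and 7.65 in the old samples. The groups did not overlap, with a difference of 0.40 (standard error 0.061, limma adjusted p = 0.00435). Sqle, the squalene epoxidase that is a rate-limiting step of the pathway, was at 9.31, 9.25 and 9.32 against 9.47, 9.57 and 9.46, a difference of 0.20 (standard error 0.056, adjusted p = 0.0368). Fdft1, squalene synthase, differed by 0.21 (standard error 0.049, adjusted p = 0.0228), from 10.70, 10.73 and 10.74 to 10.91, 10.96 and 10.92. Fdft1 turned to -0.14 when probe sets shared between transcripts were left out and to -0.07 when its probe sets were averaged, and neither passed the threshold. Its dimmer probe sets were at -0.14, -0.28 and -0.07, none past the threshold. Sqle and Fdft1 each lost their call when any 1 of the 6 samples was left out, with adjusted p from 0.0666 to 0.125 for Sqle and from 0.0513 to 0.0754 for Fdft1.

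From lanosterol to cholesterol, 4 of 8 enzymes were higher in the old samples and none was lower at its brightest probe set. Cyp51, the cytochrome P450 that demethylates lanosterol, was at 6.569, 6.480 and 6.556 in the young samples and at 7.005, 7.009 and 6.857 in the old samples. Every old sample was above every young sample, and the difference was 0.42 (standard error 0.063, limma adjusted p = 0.00397). Msmo1, which oxidizes the sterol methyl groups, was at 8.98, 8.93 and 8.80 against 9.31, 9.12 and 9.13, a difference of 0.28 (standard error 0.075, adjusted p = 0.0324). Nsdhl, the dehydrogenase of the next step, was at 7.59, 7.53 and 7.50 against 7.72, 7.78 and 7.82, a difference of 0.23 (standard error 0.054, adjusted p = 0.0222). Dhcr7, the reductase that completes cholesterol, was at 8.31, 8.20 and 8.12 against 8.46, 8.46 and 8.45, a difference of 0.24 (standard error 0.062, adjusted p = 0.0284). For each of these enzymes the age groups did not overlap. Cyp51 kept its call without any 1 sample, while Msmo1 lost it without young replicate 2 or 3 or old replicate 1 or 3 (adjusted p up to 0.0964), Nsdhl without young replicate 2 or 3 or old replicate 2 or 3 (up to 0.0800), and Dhcr7 without any sample but young replicate 1 (up to 0.0875). The 4 remaining enzymes did not pass the threshold. The sterol reductase Tm7sf2 was at 0.27 with a 95% interval from -0.004 to 0.54, the isomerase Ebp at 0.03 and the desaturase Sc5d at -0.09. A dimmer probe set of Sc5d was at -0.60 and past the threshold. Hsd17b12, which is best known for the elongation of fatty acids, was at -0.19 without overlap (adjusted p = 0.0688), and its other probe set was much lower.

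**Figure D2:**
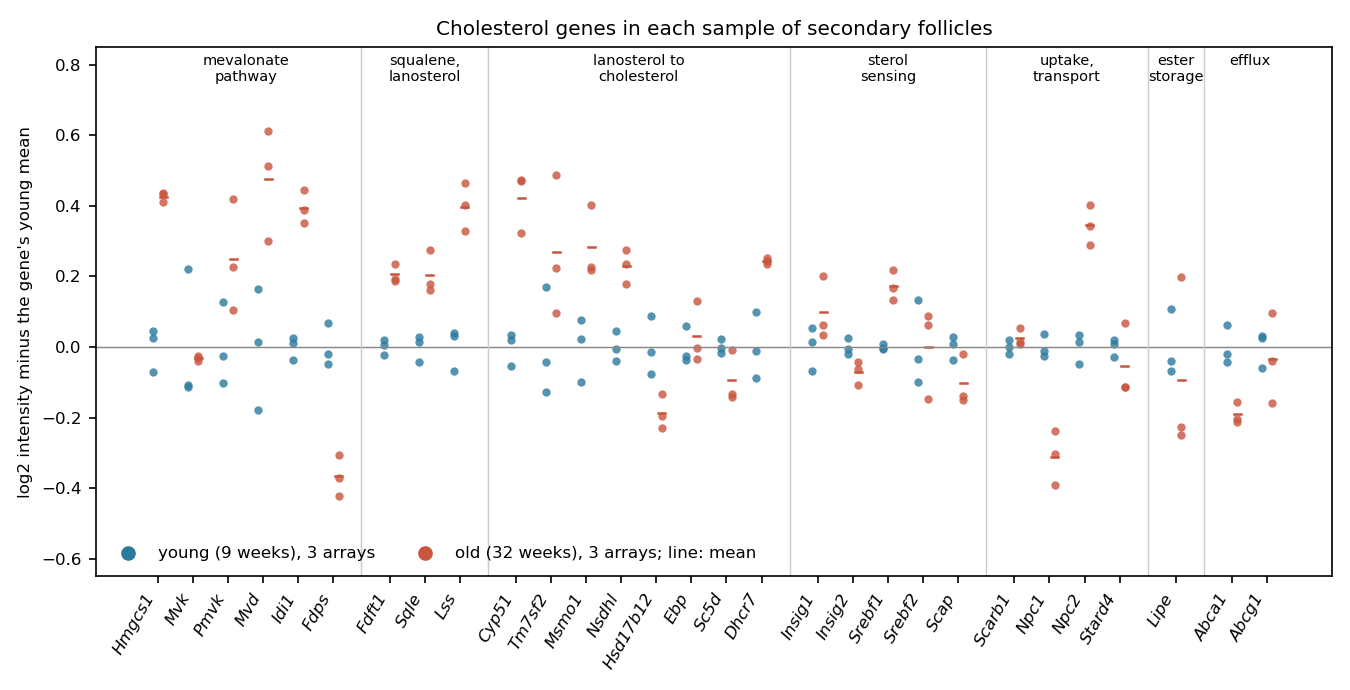
Each point is 1 array, with the log2 intensity minus the gene's own mean over the 3 young arrays on the vertical axis and the 29 genes in order of the pathway on the horizontal axis. Points of the old samples lie higher for most synthesis genes and lower for Fdps, Npc1 and Abca1, and for Hsd17b12 and Insig2, which were not called. They overlap with the young points for genes such as Srebf2, Scarb1 and Abcg1.

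The genes of sterol sensing differed little between the ages. Srebf1, which encodes SREBP-1, the factor known mostly for fatty acid genes, was at 7.92, 7.93 and 7.92 in the young samples and at 8.09, 8.14 and 8.06 in the old samples. The difference of 0.17 (standard error 0.050, limma adjusted p = 0.0446) passed the threshold, and its adjusted p ran from 0.0804 to 0.118 when any 1 sample was left out. Srebf2, which encodes the factor known mostly for cholesterol genes, was at 7.50, 7.33 and 7.27 against 7.22, 7.46 and 7.43. Its groups overlapped, with a difference of 0.00057 and a 95% interval from -0.21 to 0.21. Insig1, itself a known SREBP target, was at 9.12, 9.20 and 9.24 against 9.39, 9.22 and 9.25. Old replicate 1 was the highest and the others lay close together, with overlap, and the difference was 0.10 (95% interval -0.05 to 0.25). Insig2 was at -0.07 and Scap at -0.10, neither past the threshold, although the groups of Insig2 did not overlap.

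Genes of uptake, transport, storage and efflux moved in both directions. Npc1, the membrane protein that moves cholesterol out of lysosomes, was at 7.90, 7.85 and 7.84 in the young samples and at 7.47, 7.63 and 7.56 in the old samples. Npc2, the soluble lysosomal protein that hands cholesterol to Npc1, was at 10.93, 11.02 and 10.99 against 11.33, 11.38 and 11.27. Neither gene had overlapping groups at its brightest probe set, and these moved in opposite directions. The difference was -0.31 for Npc1 (standard error 0.059, adjusted p = 0.00979 from limma) and 0.34 for Npc2 (standard error 0.056, adjusted p = 0.00534). The next brightest probe set of Npc2 went the other way without overlap, from a mean of 10.15 in young to 10.05 in old samples. Its difference of -0.10 did not pass the threshold (limma adjusted p = 0.242 over all probe sets). Abca1, which exports cholesterol to lipid-poor apolipoproteins, was at 9.08, 9.19 and 9.10 against 8.97, 8.92 and 8.91. It was lower by a small step without overlap, with a difference of -0.19 (standard error 0.054, adjusted p = 0.0407). Abca1 lost its call after quantile (adjusted p = 0.121) and cyclic loess normalization (adjusted p = 0.130), and when any 1 sample was left out (adjusted p from 0.0517 to 0.142). Abcg1, which exports cholesterol to mature lipoprotein particles, was at -0.03 with a 95% interval from -0.21 to 0.14. Scarb1, the receptor that takes up cholesteryl esters from HDL, was at 9.47, 9.49 and 9.45 against 9.48, 9.53 and 9.49, a difference of 0.03 at its brightest probe set. The cytosolic sterol carrier Stard4 was at -0.05 and Lipe, the lipase that releases cholesterol from its esters, at -0.09, both with overlapping groups.

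Probe sets of the same gene did not always move together. The 29 genes had 63 probe sets, of which 20 were higher and 6 were lower when all probe sets were tested together, where 8.95% of all single-gene probe sets were higher and 13.8% were lower. Of the 20 genes with more than 1 probe set, the next brightest had the same sign as the brightest in 14 and the other sign in 6. The higher genes Idi1, Lss, Cyp51 and Msmo1 had a further probe set past the threshold in the same direction, at 0.38 for Idi1, 0.79 for Lss, 0.29 for Cyp51 and 0.53 for Msmo1. The further probe set of Mvd was at 0.20 (adjusted p = 0.0580 over all probe sets). Hmgcs1 had further probe sets past the threshold in both directions, its dimmest at 0.46 (adjusted p = 0.0384) and another that went from 7.29 to 6.50, a difference of -0.78. The dimmer probe set of Hsd17b12 went from 7.76 to 6.45, a difference of -1.30 and the only probe set of the 63 past a fold of 2. In Sc5d (-0.60) and Insig2 (-0.55) a dimmer probe set was lower as well. Scarb1 went the other way, with its brightest probe set near 0 and the other probe sets at 0.42 and 0.40, both past the threshold. Stard4 had a second probe set at 0.34 (adjusted p = 0.0310). Averaged over all their probe sets, Hmgcs1 was at 0.013, Npc2 at 0.07 and Abca1 at -0.11 and none was called, while Hsd17b12 (-0.75), Sc5d (-0.26), Insig2 (-0.21) and Scarb1 (0.28) were. The dimmer probe sets of Abca1 lay between 2.02 and 2.85 on every array, against 8.91 to 9.19 for its brightest. The brightest probe sets of Srebf1 (adjusted p = 0.0636) and Abca1 (0.0553) fell short of the threshold when adjusted over all probe sets. Positions of the probe sets along transcripts were not analysed here, in samples whose 3' minus 5' values for Gapdh and beta-actin differed by 1.04 and 1.05.

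**Figure D3:**
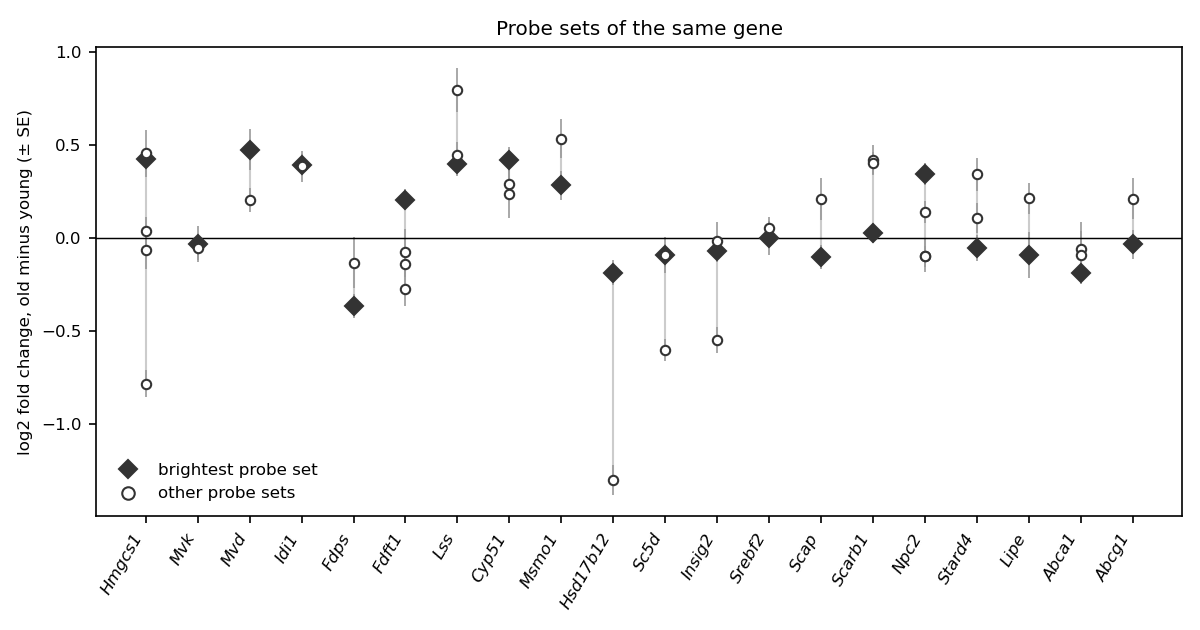
Log2 fold changes of old against young (vertical axis, with the standard error) for every probe set of the 20 genes that had more than 1. Filled diamonds are the brightest probe set of a gene and open circles the others. The probe sets of Idi1, Lss and Cyp51 lie together above 0, while those of Hmgcs1 run from -0.78 to 0.46.

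Other genes of cholesterol handling went in both directions, with 9 of 45 measured higher and 6 lower, beside 10.1% higher and 13.3% lower over all genes. Of 3 further synthesis enzymes that were measured, none was higher and 1 was lower, Erg28, known from yeast as a scaffold of the later sterol enzymes, which went from 8.97 ± 0.070 to 8.57 ± 0.097 (SD, n = 3 each), a difference of -0.40 (standard error 0.069, limma adjusted p = 0.00694). The other two, the reductases Hsd17b7 and Lbr, were at -0.03 and -0.09. Of 7 further sterol-sensing genes 1 was lower, the ubiquitin ligase gene Rnf139 (-0.27), and none was higher. Of 19 further genes of uptake and transport 7 were higher and 3 were lower, the latter Mylip (-0.38), Apoe (-0.37) and Osbp (-0.22). Star, which carries cholesterol into mitochondria for steroid synthesis, had the largest difference of that list, from 4.68, 4.85 and 4.80 to 6.65, 6.63 and 6.67 (1.87, standard error 0.060, adjusted p = 4.03e-06). The lipoprotein receptor gene Lrp8 (0.49), the mitochondrial protein gene Tspo (0.47) and the lysosomal membrane protein gene Scarb2 (0.30) were also higher. Of 16 further genes of efflux, storage and oxysterols 2 were higher and 1 was lower, the phospholipid transfer protein gene Pltp (0.30), the apolipoprotein gene Apoa1 (0.24) and the acyltransferase gene Lpcat3 (-0.19). Read from a probe set that is not shared between transcripts, Pltp was at -0.20 and did not pass the threshold. Without 1 sample, the highest adjusted p was 0.0605 for Rnf139 (young replicate 2 left out), 0.0731 for Pltp and 0.107 for Apoa1, Lpcat3 lost its call whichever sample was left out (from 0.0515 to 0.119), while Erg28, Star, Lrp8, Tspo and Scarb2 kept their calls.

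Fatty acid synthesis, which SREBP factors also control, had 5 of 14 genes higher and 1 lower, beside 10.1% higher and 13.3% lower over all genes. The median log2 fold change of the 14 genes was 0.12. Scd1, a desaturase of saturated fatty acids, was at 5.71, 5.69 and 5.64 in the young samples and at 6.26, 6.36 and 6.44 in the old samples, a difference of 0.67 (standard error 0.062, limma adjusted p = 6.24e-04). Scd2 of the same list was far brighter, with means of 11.96 in young and 11.99 in old samples, and was not called (0.03, adjusted p = 0.688). Fasn (0.12) was not called either, and the lower gene was Mid1ip1 (-0.20). Acss2, which makes acetyl-CoA from acetate, rose by 0.59 and Acaca, which commits acetyl-CoA to fatty acids, by 0.28. Acly, which makes acetyl-CoA from citrate, was at 0.35 and turned to -0.16 with the probe set that was brightest on the young arrays. Of 9 genes of the other isoprenoid branches, none was higher and 2 were lower, beside 13.3% lower over all genes, namely Ggps1 (-0.23), which makes geranylgeranyl diphosphate from the product of Fdps, and Nus1 (-0.22), which takes part in dolichol synthesis. Ggps1 lost its call when any 1 sample was left out (adjusted p from 0.0504 to 0.109), and Nus1 lost it without any sample but old replicate 1 (up to 0.0929).

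Marker lists moved in the same samples as the cholesterol genes, where 10.1% of all genes were higher and 13.3% lower, and their part in these differences was not tested. In the old samples the oocyte markers Zp3 (-0.54), Kit (-0.49), Nlrp5 (-0.33) and Zp1 (-0.29) were lower, with a median of -0.25 over the 12 markers. Granulosa markers had a median of 0.05, with Kitl (-0.43) and Wt1 (-0.31) lower and Gja1 (0.28) and Fst (0.21) higher, of which Fst was at -0.13 and not called with the probe set that was brightest on the young arrays. Wt1, Gja1 and Fst also lost their call in some fits without 1 sample, with adjusted p up to 0.0570 for Wt1, 0.136 for Gja1 and 0.0925 for Fst. Of 6 markers of theca and steroidogenic cells, Star and Cyp11a1, the enzyme that cleaves the cholesterol side chain, were higher, and Cyp11a1 went from 7.15 ± 0.069 to 8.49 ± 0.063 (SD, n = 3 each), a difference of 1.34. The steroidogenic enzyme genes Cyp17a1 (-0.11) and Hsd3b1 (0.04) were not called. Macrophages handle much cholesterol, and their 16 markers averaged 4.68 to 4.73 in young and 5.20 to 5.23 in old samples, led by Mpeg1 (1.30) and Ctss (1.36). Lyz2 was lower (-0.32), and Adgre1 (0.20), Cd68 (0.20), Cd14 (-0.07), Itgam (-0.01) and Mrc1 (-0.17) were not called. The 8 surface epithelium markers averaged 5.46 to 5.56 in young and 6.28 to 6.40 in old samples, led by Krt19 (1.55) and Upk3b (1.17). Of 10 endothelial markers 4 were higher and 1 was lower, of 7 smooth muscle markers 4 were higher and 1 was lower, and of 5 adipocyte markers Fabp4 (1.28) was higher, while the adipocyte hormone gene Adipoq was at 2.64 in both ages.

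**Figure D4:**
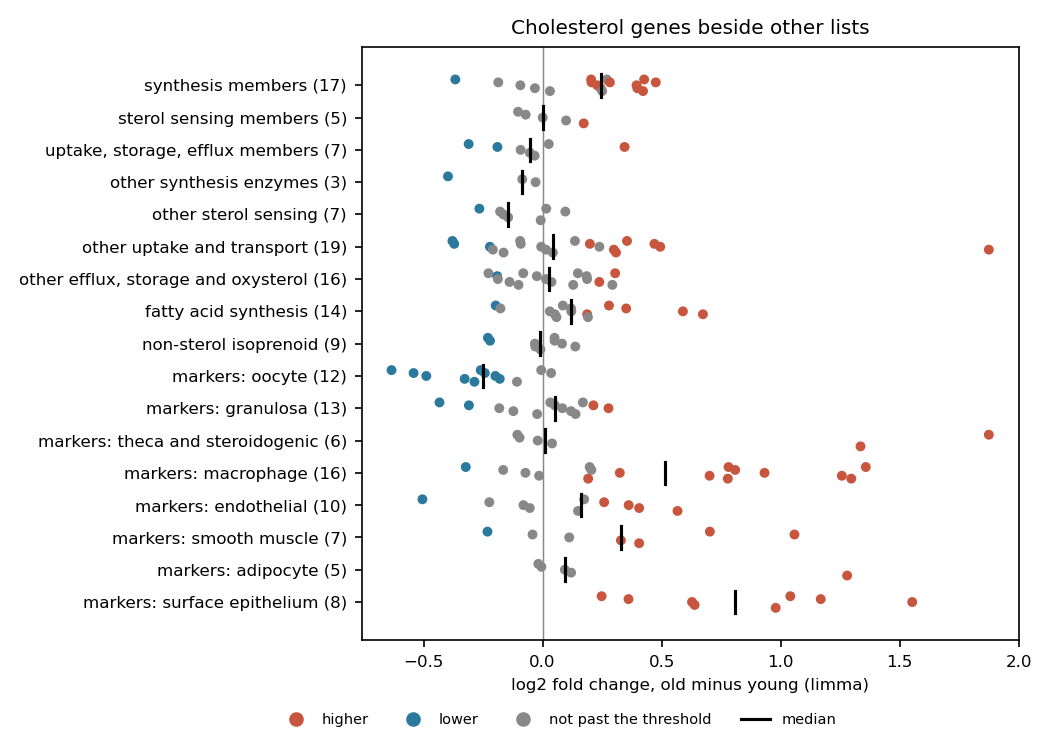
Each point is a gene, with its log2 fold change of old against young on the horizontal axis and the gene lists on the vertical axis (number of genes in brackets), coloured by whether it passed an adjusted p of at most 0.05, with a black line at the list's median. The synthesis genes have a median of 0.24, the oocyte markers of -0.25 and the surface epithelium markers of 0.81.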

How the data were processed

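Affymetrix Mouse Genome arrays measured RNA of 6 follicle samples, 3 per age. The authors normalized the scans with RMA (version not given in the sources used here), from which they deposited intensity values on a linear scale, from 2.62 to 13880, of which log2 was taken without a pseudocount. Probe sets were named with the platform's annotation table, and 34945 had 1 gene symbol, 932 several and 9160 none listed, besides 64 control probe sets. RefSeq gene IDs gave current symbols (18032 of 18194 IDs matched). Each of 18193 genes was read from its brightest probe set, by the mean of all 6 arrays. Old and young samples were compared by limma's moderated test (limma 3.58.1, R 4.3.3, lmFit and eBayes), two-sided and adjusted over all genes by Benjamini-Hochberg, and "higher" and "lower" mean an adjusted p of at most 0.05. Arrays have no read depth, and precision is limited by their number. SAM, the test named in the study's methods, was written anew and run as an alternative. The fits were tested on simulated data. All 29 measured genes are named, with up to 4 genes of each further list by the smallest p. Hsd3b1, Adipoq, Mylip, Apoe, Osbp, Scd2, Fasn, Mid1ip1, Lyz2, Adgre1, Cd68, Cd14, Itgam and Mrc1 were added after their values were seen. The genes, lists and tests were chosen with earlier results of these data known. Same-numbered samples deviated from their group means with correlations of 0.05, -0.0003 and 0.04 across genes, so the replicate numbers were not taken as pairs.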

Additional observations from a re-analysis of the deposited data

How the results depend on the processing

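Of the 15 genes called, Idi1, Lss, Cyp51, Fdps and Npc1 kept their direction and their call under all 16 alternatives run with no minimum fold, and Hmgcs1 and Npc2 under all but the mean of all probe sets. Of the genes not called, Pmvk passed as higher in 4 of the 16 alternatives and Hsd17b12 as lower in 4. Sc5d, Insig2 and Scarb1 passed in 1 each. Npc1 has 1 probe set, so the alternatives that chose or averaged probe sets repeated its main difference. Fits that chose probe sets otherwise also repeated the main difference of a gene whose probe set stayed the same. Without 1 sample, the genes called fell to 11 without young replicate 1, 7 without young replicate 2, 7 without young replicate 3, 9 without old replicate 1, 8 without old replicate 2 and 8 without old replicate 3, all of them among the 15. The shares of all genes fell as well, from 10.1% to 6.24% to 8.12% higher and from 13.3% to 8.24% to 11.9% lower. Over these fits the count of higher genes ran from 5 to 9 and that of lower genes was 2, the synthesis median ran from 0.19 to 0.29, the sterol-sensing median from -0.0497 to 0.065, that of uptake, storage and efflux from -0.0677 to -0.0205, the genes called at a fold of 2 from 141 to 146 against 139, and the 3' minus 5' difference from 1.03 to 1.05 for Gapdh and from 1.04 to 1.08 for beta-actin. SAM and the replicate number as a block (replicate block) each left 7 higher and 2 lower genes, and both lost Sqle, Nsdhl, Dhcr7, Fdft1, Srebf1 and Abca1. Of all genes, SAM called 9.57% higher and 11.2% lower, and the block called 8.22% higher and 10.5% lower. Averaging all probe sets of a gene gave 5 lower genes, beside 13.7% lower over all genes. The sterol-sensing median was then 0.0532 and that of uptake, storage and efflux 0.0719. After quantile normalization the synthesis, sensing and transport medians were 0.32, 0.0778 and 0.013, and after cyclic loess 0.31, 0.0733 and 0.012, with a Gapdh difference of 1.02. A fold of at least 1.5 called 617 genes and none of the 29. Among named genes called in the main fit or in the alternative, signs turned for Fdft1, Pltp, Acly and Fst. Fdft1 was at -0.0716 with averaged and -0.14 without shared probe sets, and Pltp at -0.20 without shared ones. Acly was at -0.0646 averaged, -0.16 with the brightest on the young arrays and -0.16 without shared ones. Fst was at -0.13 with the brightest on the young arrays. Some genes called in neither fit also turned, such as Scap (0.053 averaged) and Stard4 (0.13 averaged). The cause was not tested. Low signal limits the dimmer probe sets, for which no detection call was used here.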
